A study of Drosophila melanogaster with 2 samples.

Results

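The 8 genes described here encode heat shock proteins of Drosophila melanogaster: Hsp22, Hsp23, Hsp26, Hsp27, Hsp67Ba, Hsp67Bc, Hsp68 and Hsp83. They were taken as a given list of 8 among 13945 protein-coding genes. A Psq-GFP summit was assigned to a gene when it lay within the gene or within 1000 bp on either side. Binding was mapped by chromatin immunoprecipitation and sequencing in whole embryos aged 0 to 24 hours, males and females together, from a fly line with an insertion targeting psq that yields Psq joined at its C terminus to GFP. The labels' description gives an antibody against GFP, while their antibody field reads psq, and the files do not settle which applies. Both biological replicates, labelled 3 and 4, belong to the same group, and the labels name no heat shock or other treatment and no second genotype. The labels used here do not say which regulatory sequence drives the tagged protein, and the control experiment that the labels name was not analysed here. Whole embryos mix all tissues and stages of the collection, so a peak gives no cell type.

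Heat shock proteins are chaperones, which hold or refold proteins that have lost their shape. Small heat shock proteins share an alpha-crystallin domain and hold unfolded proteins, whereas the families of Hsp70 and Hsp90 use ATP. In the fly the heat shock factor Hsf switches these genes on by binding inverted GAA units, called heat shock elements, and several of the promoters are kept accessible beforehand by the GAGA factor, encoded by Trl, on GA repeats. Psq (pipsqueak) is another BTB-domain protein known to bind GAGA-type repeats. Several small heat shock genes of the 67B cluster are also switched on without heat during development, by ecdysone or in the ovary.

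The deposited peak lists on the dm6 assembly were used. The authors' set that passed the irreproducible discovery rate test (IDR) held 2999 peaks. Their relaxed list on both replicates pooled, and the relaxed list of each replicate, held 30000 peaks each, background included. Each peak has a score that ranks it within its own list (rank 1 is the highest), and scores of different lists have different scales. The 2999 IDR peaks were also the strongest 2999 of the pooled list, down to a score of 72.5. The lists carry no count of reads, and depth is therefore unknown.

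Of the 8 genes, 5 had an IDR summit: Hsp27, Hsp83, Hsp26, Hsp67Ba and Hsp22. Among all protein-coding genes 20.7% had one under the same rule, and 17.0% of the 7664 genes as long as these (884 to 4091 bp). The 5 genes held 5 distinct summits, since Hsp83 had 2 and Hsp26 and Hsp67Ba shared 1. Having 2 or more IDR summits applied to 1 of the 8 genes, Hsp83, beside 4.91% of all protein-coding genes. Requiring a summit within 1000 bp of a transcription start site (TSS) left 4 of 8, without Hsp67Ba, beside 16.2% of all. All 8 genes had a summit in the pooled list, and so did 69.3% of all protein-coding genes, and the count of 8 is read against that share. No test against other genes was made, because the 8 genes were chosen with earlier results known.

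**Figure D1:**
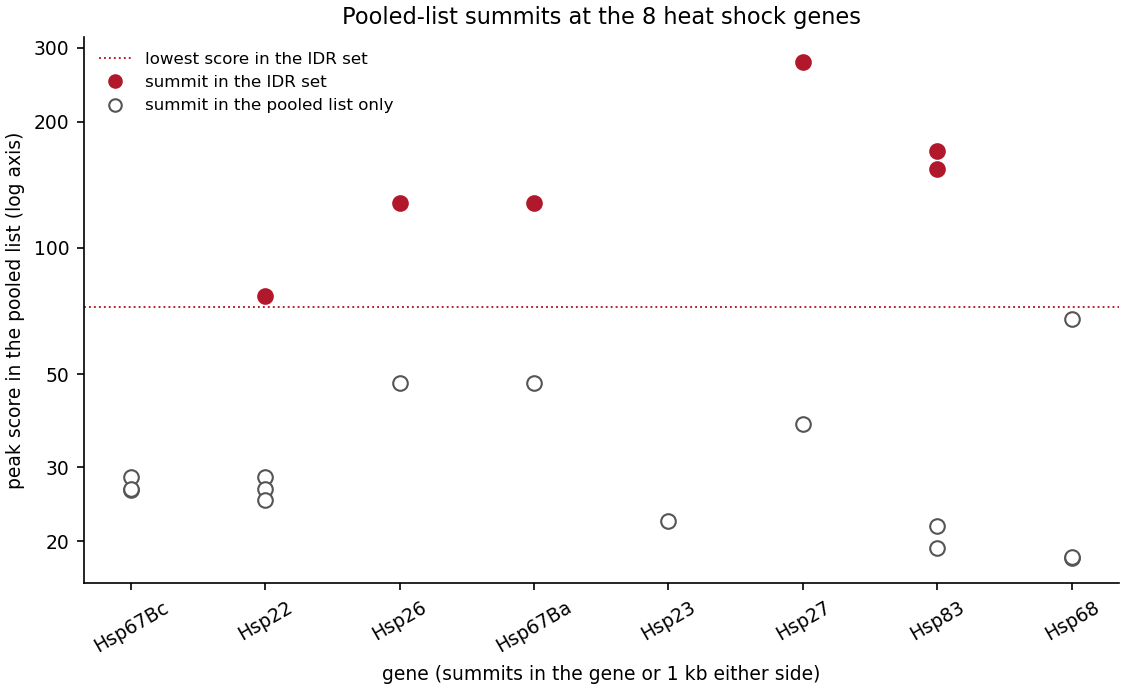
Pooled-list peak scores (log axis) of every summit in each of the 8 genes or 1 kb either side. Filled points are IDR summits, open points are in the pooled list only, and the dotted line is the lowest IDR score, 72.5. Hsp27 has the highest summit at 278, the point of Hsp68 at 67.9 lies just under the line, and the Hsp26 and Hsp67Ba points are the same 2 summits.

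The small heat shock genes lie together on 3L. From the first base of Hsp67Bc to the last of Hsp27, with 1000 bp on either side, the unit spans 3L from 9370511 to 9386694, or 16184 bp. Hsp67Bc, Hsp22, Hsp26, Hsp67Ba, Hsp23 and Hsp27 follow each other in that order, with CG4456, CG4461 and the non-coding asRNA:CR43481 among them. The pseudogenes CR43483 and CR43482 lie at the right end of the unit, and Fdx1 reaches into its left end. CG4456 carries the synonym Hsp67Bb in RefSeq, overlaps Hsp22 and has 1 TSS in common with it, and CG4461 belongs to the small heat shock protein family. The pooled list placed 10 summits in the unit, and 3 of them were in the IDR set. That is 0.185 IDR summits per kb, beside 0.0233 per kb over the whole arm. Cutting 3L into 1736 tiles of the same length left 56 tiles, or 3.23%, with at least 3 IDR summits, and 24.1% with any.

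The 3 IDR summits of the cluster were at Hsp22, Hsp26 and Hsp27, with scores of 76.7, 128 and 278. They lay 378, 103 and 149 bp upstream of a TSS of their gene. Hsp67Bc and Hsp23, the genes without one, had only weak pooled summits beside their TSSs. Replicate 3 had 7 summits in the unit and replicate 4 had 9, and the strongest was the Hsp27 one in both.

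The neighbourhood was not uniform. The 16184 bp to the left of the unit held 4 IDR summits, with scores of 661, 320, 85.8 and 78.8, and the same length to the right held 0 of 8 pooled summits in the IDR set. The score of 661 belongs to a summit 29 bp from the TSS of Klp67A, and that of 320 to one 101 bp from the TSS of CG4452. These summits share the interval 9366848 to 9367456, 3436 and 3235 bp outside the unit. Both were stronger than any summit at the heat shock genes. Klp67A and CG4452 were picked for naming after their values were seen.

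**Figure D2:**
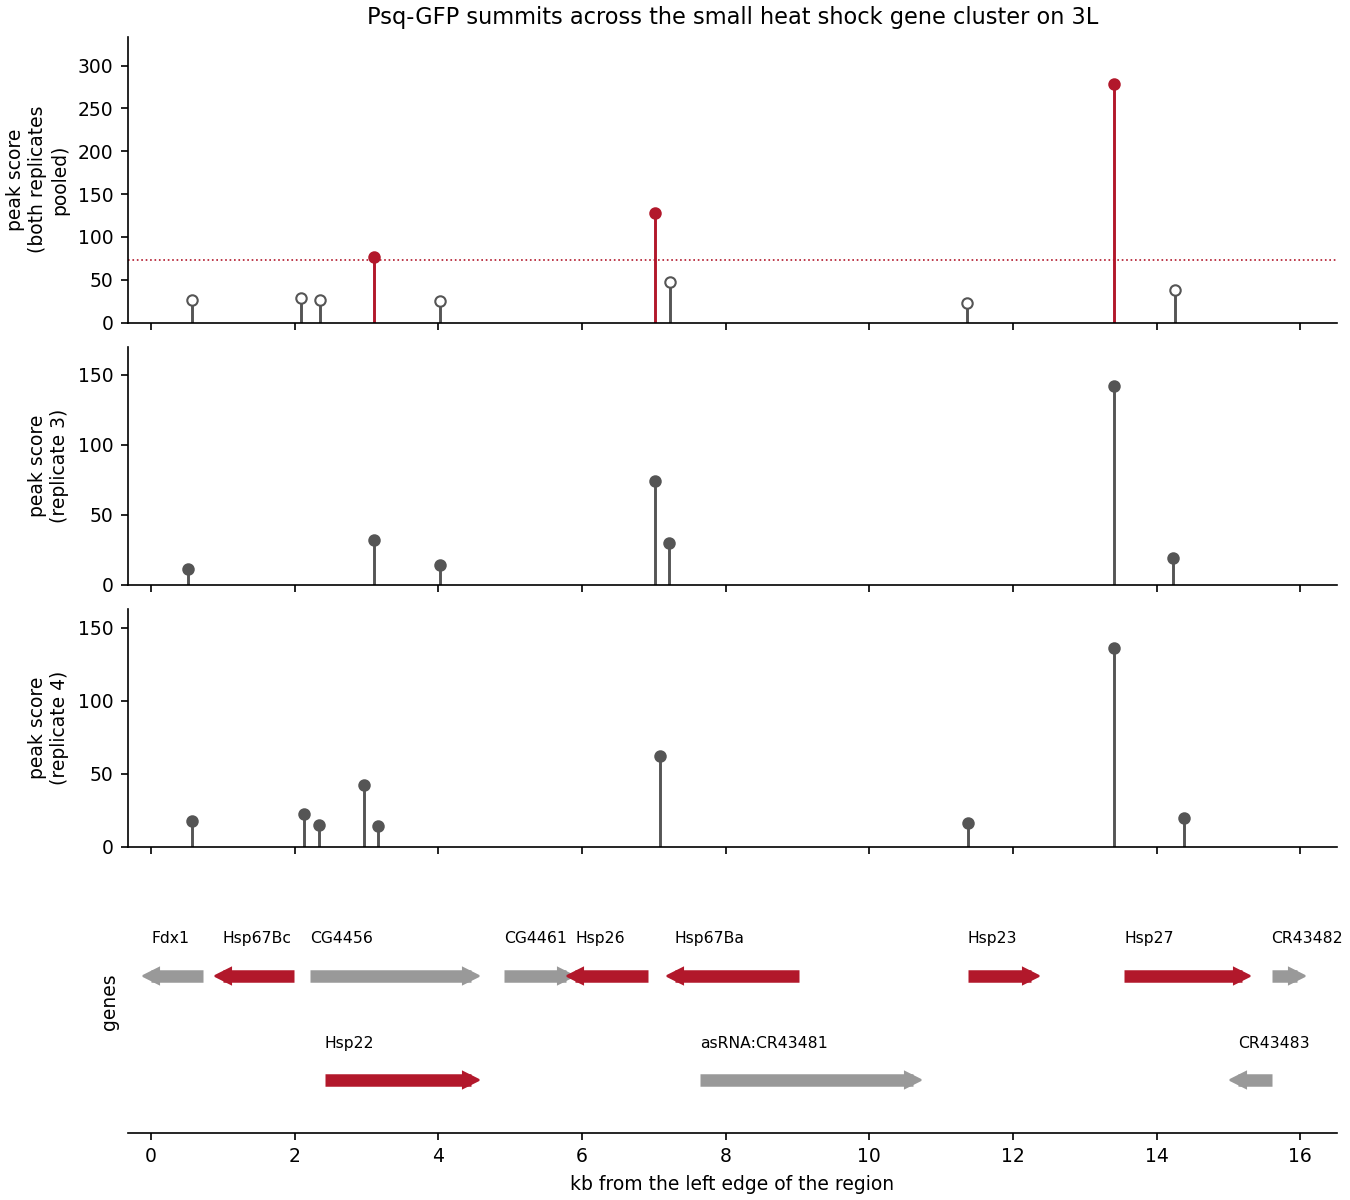
Summits across the small heat shock gene unit on 3L, by kb from its left edge, with peak score in the pooled list, in replicate 3 and in replicate 4, each on its own scale, and the genes below (heat shock genes of the list in red, others in grey, arrowheads in the direction of transcription). Filled red points in the top panel are IDR summits, and the dotted line marks a score of 72.5. The Hsp27 promoter is highest in all 3 panels, and the weak summits at the Hsp23 and Hsp67Bc starts appear in the pooled panel and that of replicate 4 but not in that of replicate 3.

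Hsp27 (FBgn0001226; 3L, 9384063 to 9385694, plus strand) encodes a small heat shock protein found in the nucleus. Its summit, at 9383914, lay 149 bp upstream of its only TSS, in the intergenic stretch of 1297 bp after Hsp23. The peak (9383774 to 9384034) was 261 bp wide, while 79.2% of IDR peaks had a width of 440 bp. Its pooled score of 278 gave rank 243 of 30000. The replicates' own peaks there had scores of 142 in replicate 3, at rank 211, and 136 in replicate 4, at rank 297. Their summits were 1 bp apart, the closest placement among the 5 sites. A second, weaker pooled summit lay in the coding exon, 711 bp downstream of the TSS, with a score of 38.1.

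The motif GAGAG, searched on both strands, was not within 100 bp of the Hsp27 summit, and its nearest match was 118 bp away. No heat shock element of 2 units, GAANNTTC or TTCNNGAA, was in that window either, and the nearest was 182 bp away. The 201 bases around the summit are printed to show this site, the strongest of the 5, on dm6 (chr3L:9383814-9384014, plus strand), and they hold no capitals because neither motif is present. They lie wholly upstream of the TSS.

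Hsp27: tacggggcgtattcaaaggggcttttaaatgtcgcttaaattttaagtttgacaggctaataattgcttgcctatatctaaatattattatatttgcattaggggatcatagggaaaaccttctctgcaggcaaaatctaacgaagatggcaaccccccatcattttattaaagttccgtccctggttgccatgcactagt

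Hsp26 (FBgn0001225; 3L, 9376418 to 9377427, minus strand) encodes a cytosolic small heat shock protein. Its promoter has long served as a model of a promoter held ready by GAGA factor. The IDR summit at 9377530 (peak 9377310 to 9377749) was 103 bp upstream of the outer TSS, with a score of 128 and pooled rank 1093. In replicate 3 the peak had a score of 74.0 at rank 780, and in replicate 4 a score of 62.2 at rank 1377. The replicate summits were 77 bp apart. A weaker pooled summit, with a score of 47.7, lay 304 bp upstream of the TSS. Replicate 3 separated this site as a peak of its own, with a score of 29.5 at rank 4079, whereas replicate 4 had 1 summit between both positions.

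The same summits count for Hsp67Ba (FBgn0001227; 3L, 9377802 to 9379534, minus strand), another gene of the small heat shock protein family. They lay 272 and 71 bp beyond its 3' end, in the 374 bp that separate it from Hsp26. From the TSS of Hsp67Ba at the other end of the gene the IDR summit was 2004 bp away. No pooled summit was found in the 201 bases that end at that TSS. By nearest TSS the site belonged to Hsp26.

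GA repeats were dense at the Hsp26 site. Within 100 bp of the summit GAGAG matched at 6 places, some of them overlapping, and 2.47% of all IDR summits had 6 or more. The longer repeat GAGAGAG matched at 3 of these places. A heat shock element of 2 units began 18 bp from the summit on the other side, beside TATAAA matches that overlap each other. The 201 bases around the summit (dm6, chr3L:9377430-9377630, minus strand, so that they read towards Hsp26) show these elements. Capitals mark GAGAG on either strand, which reads CTCTC on this one, and the 2-unit heat shock element. The GA repeats follow the summit, which is base 101, and the heat shock element precedes it.

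Hsp26: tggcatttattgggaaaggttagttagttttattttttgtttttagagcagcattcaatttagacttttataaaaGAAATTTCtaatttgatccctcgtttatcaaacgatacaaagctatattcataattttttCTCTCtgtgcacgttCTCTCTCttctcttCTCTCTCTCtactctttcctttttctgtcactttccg

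Hsp22 (FBgn0001223; 3L, 9372931 to 9374964, plus strand) encodes a small heat shock protein of the mitochondrion and has 2 annotated TSSs. Its IDR summit, at 9373619, lay 378 bp upstream of the inner TSS at 9373997. It lay 688 bp downstream of the outer TSS, inside the 5' UTR of the longer Hsp22 transcript and the 3' UTR of some CG4456 transcripts. The score was 76.7, pooled rank 2730, close to the lower end of the IDR set at 72.5. Replicate 3 had a score of 31.8 at rank 3650, and replicate 4 a score of 42.4 at rank 2764, with summits 144 bp apart. This was the only one of the 5 sites that lay outside the 2999 strongest peaks of a replicate, namely replicate 3. With replicate 4 left out, Hsp22 was therefore without a summit and 4 of 8 genes had one.

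The Hsp22 site also held GA repeats. GAGAG matched at 6 places between 41 and 78 bp from the summit, all on the side of the inner TSS, and GAGAGAG at 2. No 2-unit heat shock element lay within 100 bp, and the nearest was 190 bp away. The region is annotated as UTR, so only the 30 bases richest in these letters are shown (dm6, chr3L:9373660-9373689, plus strand), with GAGAG read on the minus strand in capitals.

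Hsp22: CTCTCTCccaCTCTCtaatggagCTCTCTC

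Hsp67Bc (FBgn0001229; 3L, 9371511 to 9372497, minus strand), whose product is linked to autophagy and removal of misfolded proteins in the fly, had no IDR summit. The Hsp22 summit was 1122 bp beyond its TSS. Its 3 pooled summits had scores of 28.4, 26.7 and 26.5, at ranks from 13800 to 15691. The nearest to its TSS, 100 bp upstream, overlapped a peak in replicate 4 alone, with a score of 22.4 at rank 8350. The weakest of the 3 lay 17 bp from the TSS of the neighbour Fdx1. Without replicate 3 the gene gained a summit, since replicate 4 put its Hsp22 peak 978 bp from the TSS of Hsp67Bc, and 6 of 8 genes then had one.

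Hsp23 (FBgn0001224; 3L, 9381882 to 9382765, plus strand), a cytosolic small heat shock gene that also responds to ecdysone, had 1 pooled summit, 7 bp upstream of its TSS. Its score of 22.4 was at rank 21031 of 30000. Replicate 4 had an overlapping peak with a score of 16.0 at rank 16280, and replicate 3 had none. The strong Hsp27 summit lay 1149 bp past the 3' end of Hsp23, beyond the window of 1000 bp. Hsp23 and Hsp27 point in the same direction, and the summits at their promoters had ranks of 243 for Hsp27 and 21031 for Hsp23. Both genes are known to respond to ecdysone, and a link between that response and these summits was not tested.

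Hsp83 (FBgn0001233; 3L, 3192969 to 3197059, plus strand) encodes the cytosolic Hsp90, which is abundant without heat and supports kinases and hormone receptors. It lies apart from the cluster and had 2 IDR summits. The promoter summit, at 3193119, was 97 bp upstream of the inner TSS and 150 bp downstream of the outer one, hence in the 5' UTR of the longer transcript. Its peak (3193022 to 3193195) was 174 bp wide, with a score of 170 and pooled rank 663. Replicate 3 gave it a score of 80.9 at rank 660 and replicate 4 a score of 89.8 at rank 687. The ranks in the 3 lists were closer to each other than at any other of the 5 sites.

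The other Hsp83 summit, at 3194229, was in the intron before the coding exon, 1013 bp downstream of the inner TSS. It was nearly as strong, with a score of 154 and pooled rank 770 (peak 3194009 to 3194448). Replicate 3 had a score of 77.9 at rank 709 and replicate 4 a score of 76.3 at rank 947. The remaining pooled summits were weak. The 1 in the same intron had a score of 21.7 at rank 22357 of 30000. The 1 in the coding exon had a score of 19.3 at rank 27236.

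Neither Hsp83 summit had GAGAG within 100 bp, and the nearest match was 550 bp from the promoter summit and 831 bp from the intron summit. Each had a 2-unit heat shock element in that window. At the promoter it began 29 bp downstream of the summit and was followed by TATAAA at 67 bp. At the intron it was 88 bp away, near the edge of the window. Both are shown on the plus strand, with the heat shock element in capitals. The promoter is annotated as UTR, so 30 bases are given (dm6, chr3L:3193126-3193155), and the intron in 201 bases (dm6, chr3L:3194129-3194329).

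Hsp83 promoter: ccctggcatccagaagcctctaGAAGTTTC
Hsp83 intron: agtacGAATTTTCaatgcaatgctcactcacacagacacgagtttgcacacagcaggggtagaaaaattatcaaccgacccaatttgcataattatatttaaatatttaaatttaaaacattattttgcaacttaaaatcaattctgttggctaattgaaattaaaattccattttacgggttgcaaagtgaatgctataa

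Hsp68 (FBgn0001230; 3R, 24055080 to 24057310, minus strand) encodes a heat-inducible member of the Hsp70 family. It had no IDR summit, and the nearest one, with a score of 410, was 6828 bp away at Rox8. Its strongest pooled summit, at 24058224, had a score of 67.9 at rank 3337, not far under the lowest IDR score of 72.5. That summit was 914 bp upstream of the Hsp68 TSS but 63 bp from the TSS of SMC1, which encodes a cohesin subunit. Replicate 3 had a score of 32.3 there at rank 3566 and replicate 4 a score of 28.6 at rank 5383.

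At the Hsp68 promoter itself the pooled list had a summit 18 bp upstream of the TSS, with a score of 18.3 at rank 29408 of 30000, among the weakest of the list. Replicate 3 had a peak there at rank 28919 and replicate 4 had none. The promoter held the most heat shock elements of the 8 genes. In the 201 bases that end at the TSS, 2-unit elements began at 6 places, and at 3 places they extended to 3 units by another GAA or TTC at the same spacing. Among all 19607 promoter windows of protein-coding genes 10.7% held a 2-unit and 0.265% a 3-unit element. The 200 bases upstream of the TSS are shown to set an Hsf-type promoter without an IDR peak beside those with one (dm6, chr3R:24057311-24057510, minus strand), with the elements in capitals. The upstream bases of Hsp23 (dm6, chr3L:9381682-9381881, plus strand) are shown as another such case, with 2 elements. Hsp67Bc, with 1 element, is the third gene of this kind.

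Hsp68: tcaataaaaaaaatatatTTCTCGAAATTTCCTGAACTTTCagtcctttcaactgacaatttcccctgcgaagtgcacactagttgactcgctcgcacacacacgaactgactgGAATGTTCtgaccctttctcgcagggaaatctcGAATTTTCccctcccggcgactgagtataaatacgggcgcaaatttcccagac
Hsp23: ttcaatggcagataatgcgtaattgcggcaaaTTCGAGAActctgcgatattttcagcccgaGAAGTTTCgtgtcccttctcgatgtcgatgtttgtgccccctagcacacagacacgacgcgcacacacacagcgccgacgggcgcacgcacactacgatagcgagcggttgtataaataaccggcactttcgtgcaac

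**Figure D3:**
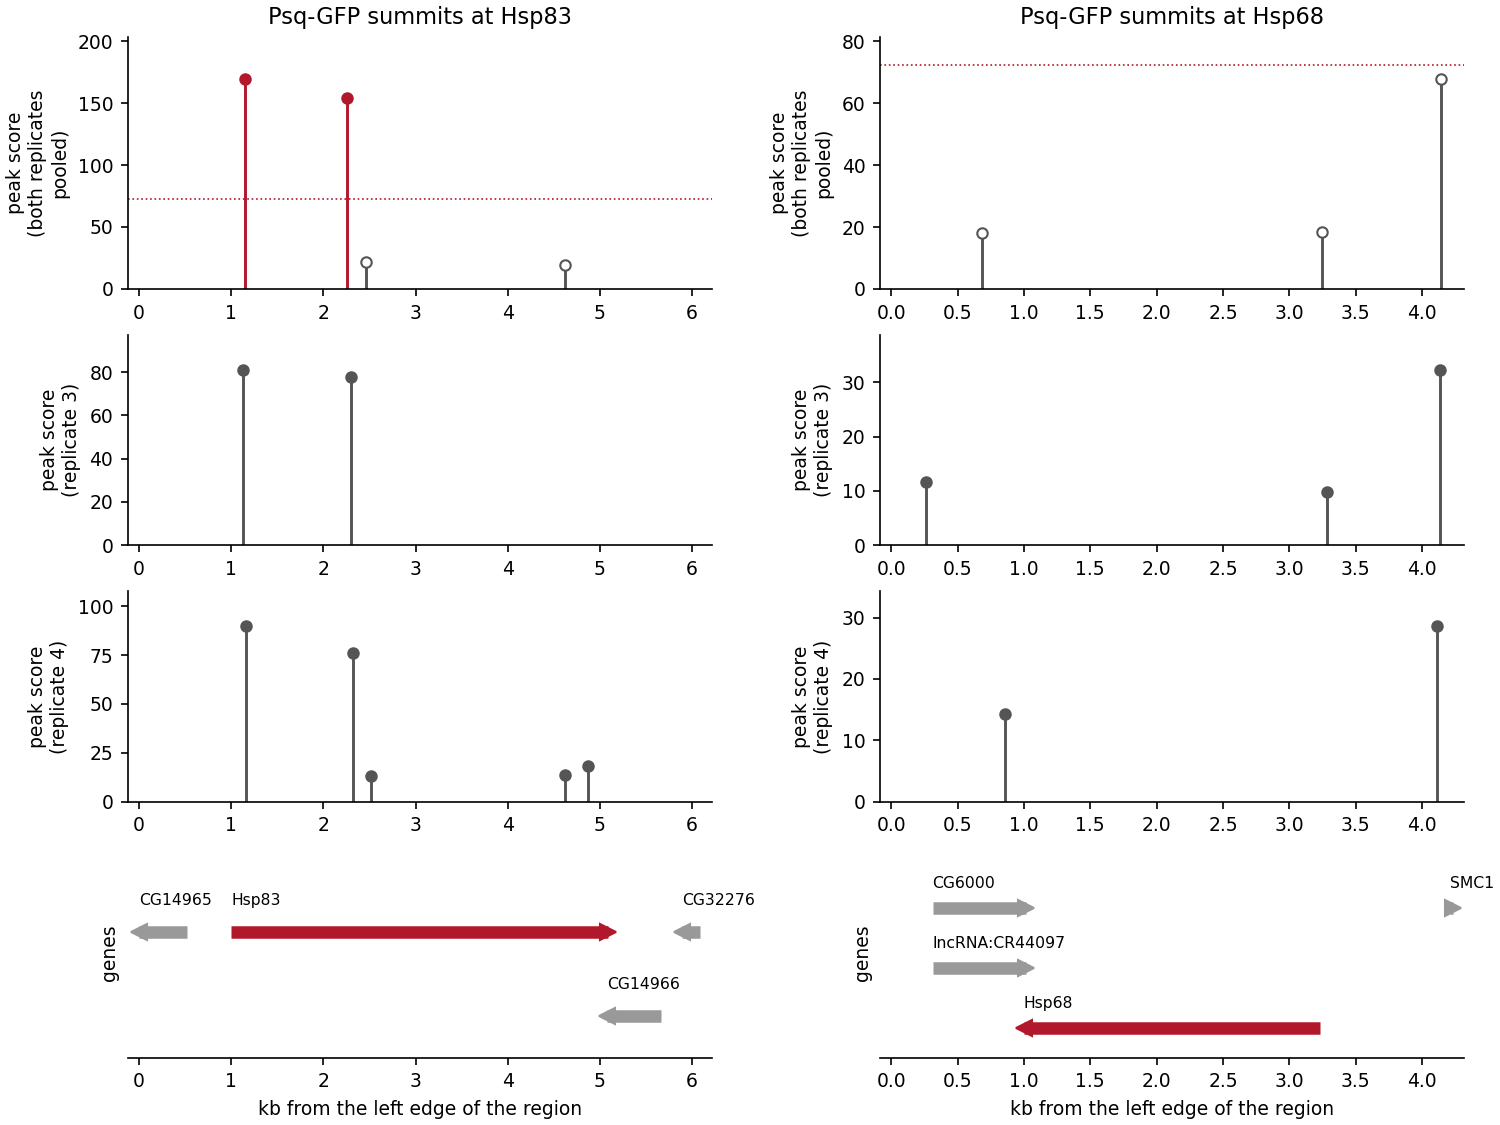
Summits at Hsp83 (left) and Hsp68 (right), by kb from the left edge of each region (gene and 1 kb either side), with peak scores in the pooled list, replicate 3 and replicate 4 on their own scales and genes below (heat shock gene in red, neighbours in grey). Filled red points are IDR summits and the dotted line is a score of 72.5. Hsp83 has its promoter and intron summits in all 3 lists, whereas the highest Hsp68 point, at 67.9, lies upstream of the gene, 63 bp from the TSS of SMC1.

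Across the 5 IDR summits GAGAG was within 100 bp of 2, beside 33.1% of all 2999 IDR summits and 25.3% of promoter windows. GAGAGAG was at the same 2, beside 9.64% of IDR summits and 6.18% of promoter windows. A 2-unit heat shock element was within 100 bp of 3, beside 9.04% of IDR summits, and a 3-unit element at 0, beside 0.200%. TATAAA was near 2 of the 5, beside 29.5%. The GA-rich sites, Hsp26 and Hsp22, had the lowest scores of the 5. The sites without GAGAG within 100 bp, Hsp27 and both at Hsp83, had the highest. With 5 sites this order is a description only. The G and C content of the windows was 38.8% at Hsp27, 47.8% and 30.3% at Hsp83, 31.8% at Hsp26 and 38.8% at Hsp22, with a median of 37.8% over all IDR summits.

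Of the 11 annotated TSSs of the 8 genes, 7 had a 2-unit element in the 201 bases upstream, beside 10.7% of all promoter windows, and 4 had GAGAG, beside 25.3%. The TSSs with GAGAG all belonged to Hsp22 and Hsp26. By gene, 6 had a 2-unit element at a promoter, and 3 of these (Hsp22, Hsp26 and Hsp83) had an IDR summit. The other 3, Hsp23, Hsp67Bc and Hsp68, had 2, 1 and 6 elements and no IDR summit. The 2 genes without an element in these 201 bases, Hsp27 and Hsp67Ba, both had an IDR summit, which for Hsp67Ba was the one at Hsp26. The element nearest to the Hsp27 summit was 182 bp from it, outside these bases. The Hsp22 summit itself lay outside them, 378 bp upstream of the inner TSS. Among all protein-coding genes 20.7% had an IDR summit in the gene or within 1000 bp, and this share was not split by element. A motif match is only a match of letters, and its absence from a window says nothing about the factor.

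**Figure D4:**
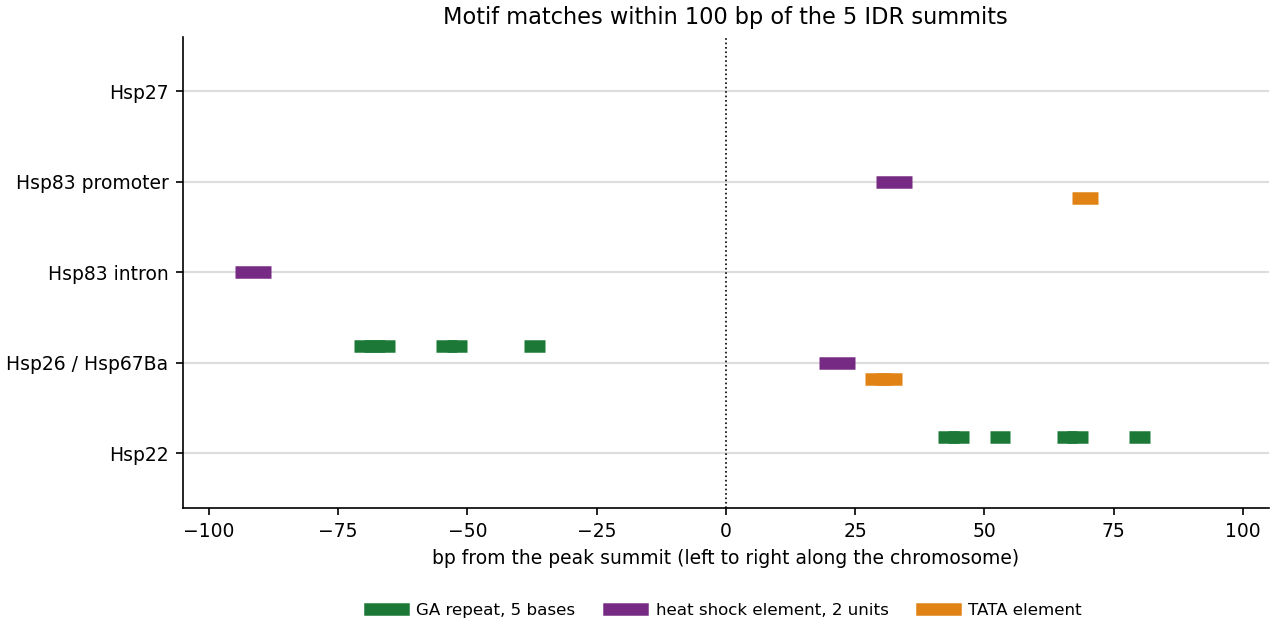
Matches of GA repeats, 2-unit heat shock elements and TATAAA within 100 bp of each of the 5 IDR summits. Positions are in bp from the summit along the chromosome. TATAAA is labelled TATA element in the figure, whatever its distance from a TSS. GA repeats appear only at Hsp26 (shared with Hsp67Ba) and Hsp22, where they lie beside rather than on the summit, and the Hsp27 row is empty.

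The replicates placed all 5 IDR peaks in both of their lists. The distance between the replicates' summits had a median of 34.0 bp and a maximum of 144 bp over the 5, and a median of 31.0 bp over the 2994 IDR peaks found in both lists. In 4 of the 5 cases the peak was among the 2999 strongest of each replicate, beside 75.7% of all IDR peaks. The IDR set was derived from these same lists, so this overlap is partly built in. No test between sites was made.

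**Figure D5:**
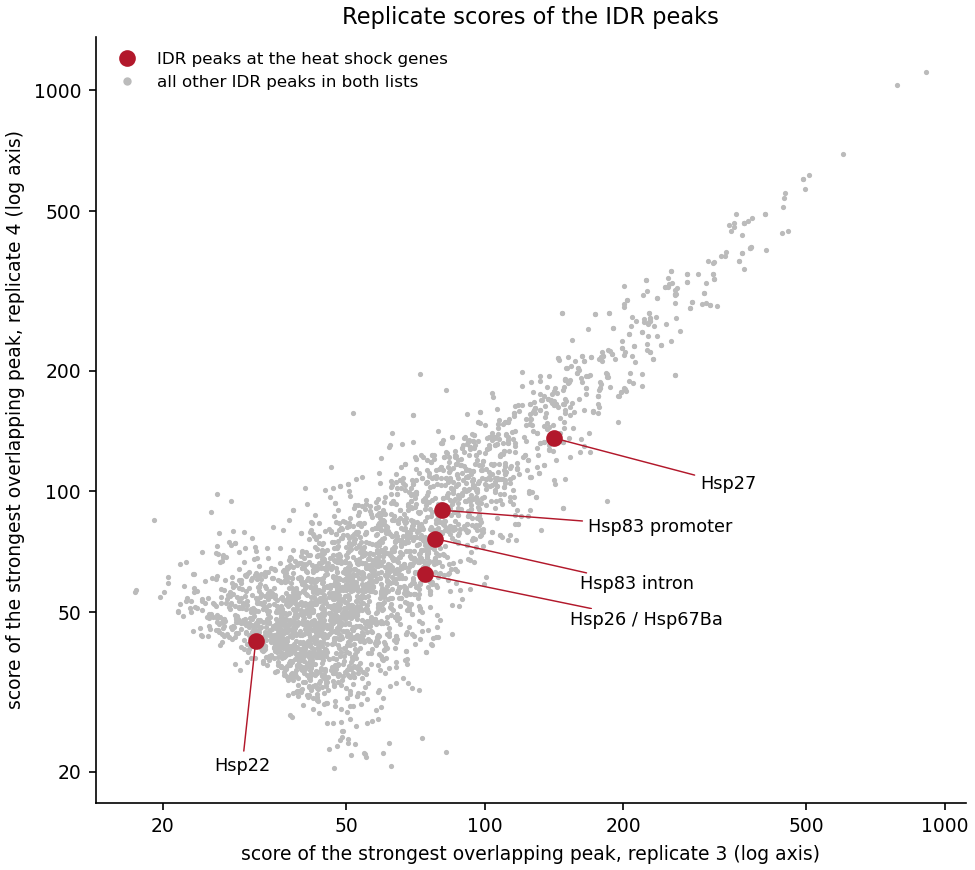
Score of the strongest overlapping peak in replicate 3 (x axis) and replicate 4 (y axis), both on log axes, for the IDR peaks at the heat shock genes (red) and all other IDR peaks found in both lists (grey). Hsp27, at 142 and 136, lies highest of the 5, and Hsp22, at 31.8 and 42.4, lies within the lowest part of the cloud.

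Other genes of the chaperone system were looked up from lists of 54 names, of which 48 matched the annotation by exact gene name. An IDR summit was assigned to 6 of these 48, or 12.5%, beside 20.7% of all protein-coding genes. With RefSeq synonyms that a single gene carries, 51 names matched and 8 had a summit, or 15.7%. The genes added with a summit were CG4456, listed as Hsp67Bb, whose summit is the Hsp22 one, and CG1416, listed as Aha1. Of the other small heat shock protein genes 1 of 6 then had an IDR summit, CG4456, and 0 of the 5 matched by exact name. CG14207, on X, had a pooled score of 62.2. In the Hsp70 family 1 of 11 genes had an IDR summit, Hsc70-5, which encodes the mitochondrial form. It scored 134, and its TSS was 36 bp away. The 6 heat-inducible Hsp70 copies had none, and 1 of them, Hsp70Ab, had a pooled summit, with a score of 25.9. The labels and files used here do not say how reads that map to several gene copies were treated, so the values at these copies are uncertain.

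Among the 48 chaperone genes matched by exact name, the strongest IDR sites were at co-chaperone genes with a J domain, which stimulate Hsp70. Of these J-domain genes 3 of 10 had an IDR summit, beside 20.7% of all protein-coding genes. DnaJ-H had a score of 862 at pooled rank 13, with its summit 202 bp downstream of a TSS. Droj2 had a score of 574 at rank 50, 90 bp upstream of an internal TSS, and mrj a score of 243 at rank 302. The mrj gene is long, at 18465 bp, and had 2 IDR summits. In replicates 3 and 4 the ranks were 14 and 12 for DnaJ-H and 59 and 44 for Droj2. DnaJ-H and Droj2 lay above Hsp27, the strongest of the 8 genes. Among Hsp90 relatives and co-chaperones matched by exact name 1 of 10 had a summit, Trap1 (123), and it was nearer to Vha16-1. With synonyms it was 2 of 11, or 18.2%, as CG1416 was added. Among chaperonin genes 1 of 12 had one, CCT3 (80.7), and it was nearer to CG10324.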

How the data were processed

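Per the labels, chromatin of both biological replicates was sonicated to 200 to 800 bp. Per the deposited text files, relaxed lists of peaks plus background were made by the authors for each replicate and for both pooled, against a control alignment, and an optimal IDR list was derived from these. Which aligner, caller and IDR threshold were used is not given in these sources. The deposited score is the caller's own and was used only within a list. The deposited −log10 q was 3.87 for each of the 2999 IDR peaks, so it ranks none of them.

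Summits were start plus offset, 1-based and kept inside the peak. Gene models were Ensembl release 115 without transposable elements, and sequence was RefSeq's dm6 genome. A replicate's value was its strongest peak overlapping by at least 1 bp. Motifs were exact matches on either strand up to 100 bp from a summit. Promoter windows were the 201 bases that end at each TSS of a protein-coding gene. Python 3.11.15 was used, and the code was tested on simulated data. Depth is unknown.

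Named genes were the 8 members, genes of the chaperone lists with an IDR summit, genes whose TSS is nearest to a member's IDR summit, and neighbours inside the cluster unit. Genes named outside this rule, after their values were seen, were Klp67A, CG4452, Rox8, SMC1, Hsp70Ab, CG14207, Vha16-1, CG10324, Pcl, RpL14, RpL11 and CG3337. Of 71 listed chaperone and regulator names, 8 matched no gene by exact name, and 3 of these matched no single gene by RefSeq synonym either. The members and lists were chosen with earlier results of these data known. With 1 group, no p-value was computed. The alternatives were other windows, stricter peaks, either replicate alone and other overlaps. The dm3 lists were not used.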

Additional observations from a re-analysis of the deposited data

How the results depend on the processing

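Of 41 alternative values, 34 stayed within 1.5 times of the count or inside the 95% Wilson interval of the share, and 7 did not. The number of the 8 genes with an IDR summit was 5, and lay between 4 and 7 in all alternatives. It was 7 with a window of 2000 bp, which added Hsp23 and Hsp67Bc, and 4 with the 1499 higher-scoring IDR peaks, which left out Hsp22. Without replicate 3 it was 6, and without replicate 4 it was 4. The share of all protein-coding genes, 20.7%, was 18.5% with 500 bp, 25.0% with 2000 bp, 11.8% with the higher-scoring peaks and 16.2% within 1000 bp of a TSS. Of 2 alternatives added after seeing the data, genes of the same length range gave 17.0% and assignment by nearest TSS 13.8%. Nearest TSS, also added later for the 8 genes, gave 4 of 8. All 5 IDR summits had a 2-unit heat shock element within 250 bp, in place of 3 within 100 bp, as the wider window holds more sequence. Among all IDR summits 21.2% had one within 250 bp, in place of 9.04%. GAGAG was within 250 bp of 3 of the 5, Hsp27 included, in place of 2 within 100 bp. Among all IDR summits 61.5% had GAGAG within 250 bp, in place of 33.1%. Matching listed chaperone and regulator names by synonym too, also added after seeing the data, gave 16 genes with an IDR summit in place of 14. Requiring a larger overlap, 0.5 of both peaks, left 4 of 5 peaks found in both replicates, as the narrow Hsp83 promoter peak was lost. No paired analysis was possible because there is 1 group. Depth is unknown.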

Other observations

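Of 17 further names, listed as regulators at heat shock promoters, 15 matched the annotation by exact name. Of these 15, 8 genes, or 53.3%, had an IDR summit in the gene or within 1000 bp, beside 20.7% of all protein-coding genes. With synonyms 17 matched and 8 had one, or 47.1%. The list includes long genes and was not matched on length. It also includes psq itself and lncRNA:Hsromega, which are both among the 8. An action of psq at these promoters was not tested here. The gene lncRNA:Hsromega is not protein-coding, unlike those of the 20.7%. The summit had its nearest TSS in the listed gene for 4 of the 8. These were psq, with a score of 1809, Trl with 518, the remodeller gene Chd1 with 123 and the heat-induced non-coding gene lncRNA:Hsromega with 123. The other 4 summits were nearer to another gene. Hsf had a score of 134 at 987 bp upstream of its TSS, and the TSS of Pcl was 195 bp away. Nelf-E, which encodes a subunit of the pausing factor NELF, had a score of 182 with RpL14 at 18 bp. Nelf-A had 85.9 with CG3337 at 35 bp, and the elongation factor gene Spt5 had 108 with RpL11 at 27 bp.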
